A study of Mus musculus with 18 samples.

Results

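The replication-independent histone variants followed here were 9 of the 24485 genes quantified in bone marrow-derived macrophages (BMDMs). They were taken by gene symbol from a list drawn up with earlier results of these data known. The members were H3f3a and H3f3b, which both encode histone H3.3; H2afz and H2afv, which encode the 2 forms of H2A.Z; H2afx, which encodes H2A.X; H2afy, which encodes macroH2A1; H2afj, which encodes H2A.J; and H1f0 and H1fx, which encode the linker histones H1.0 and H1.10. All 9 were found in each of the 18 libraries, and all 9 entered the statistical test.

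Most histone mRNA is made only during S phase, from clustered genes whose transcripts end in a stem-loop and carry no poly(A) tail. The genes examined here are transcribed outside S phase as well, mostly give polyadenylated mRNA, and supply histones that can be placed in chromatin without DNA replication. H3.3 is deposited at active genes and regulatory elements by the HIRA complex and at heterochromatin by DAXX and ATRX. H2A.Z is exchanged into promoter nucleosomes by the SRCAP and EP400 complexes, H2A.X is phosphorylated around DNA breaks, macroH2A1 carries a large macro domain and is often found on repressed chromatin, and H1.0 accumulates in cells that have stopped dividing.

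BMDMs were grown for 6 days with L929-conditioned medium, a source of macrophage growth factor, from 3 mice lacking Il10 on the C57BL/6J background, which were male and 12 weeks old. Cells were left untreated (the methods name a vehicle) or were pre-treated for 12 hours with 500 nM (+)-JQ1, which displaces the BET bromodomain proteins from acetylated histones, or with 10 ng/mL IL-10, and then received 50 ng/mL lipopolysaccharide (LPS) or PBS for the last 4 of 16 hours. This gave 6 groups of 3 libraries: Unstimulated, JQ1, IL10, LPS, LPS + JQ1 and LPS + IL10. All of them, controls included, carried the Il10 deletion, so no group had the cytokine of its own, and wild-type cells were not analysed here. The comparisons address how an inflammatory stimulus, BET inhibition and added IL-10 changed the supply of variant histone mRNA.

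Libraries of ribosomal RNA-depleted total RNA held 6781952 to 28289498 expected counts, the lowest being Unstimulated replicate 2. The 45S pre-ribosomal RNA (Rn45s) took 9.11% to 12.5% of counts in the 9 libraries without LPS and 5.54% to 7.92% in the 9 with LPS, and its part in the LPS results was not tested. Reads were still assigned to Il10 in every library (3.2 to 14.63 TPM, a length-corrected share of the transcripts of a library), so part of its transcript was still counted. The macrophage markers Lyz2, Csf1r and Adgre1 were abundant, with lowest group means of 10214, 613 and 492 TPM. The summed level of the 7 macrophage markers measured was 12766 to 28292 TPM, against 1.83 to 8.76 for the 5 T cell markers, 0.10 to 5.13 for the 4 B cell markers, 6.76 to 74.0 for the 5 neutrophil markers and 1.90 to 9.74 for the 5 fibroblast and epithelial markers. Ly6g, which defines neutrophils, was at 0 in every library. The neutrophil sum was lower in the JQ1 and LPS + JQ1 libraries (6.76 to 23.9) than in most others (21.1 to 74.0, the highest being Unstimulated replicate 3), S100a8 and S100a9 fell with JQ1 with and without LPS, and their part in the results was not tested. Of the 7 macrophage markers 2 rose and 1 fell with LPS, and 2 rose and 4 fell with JQ1. In LPS + JQ1 against LPS 1 rose and 5 fell, among them Csf1r, which turned to 0.12 with total-count scaling. Fcgr1 and Itgam fell most, with JQ1 (-3.29 and -1.64) and in LPS + JQ1 against LPS (-4.74 and -2.27). With total-count scaling they still fell, by -3.46 and -1.81 and by -4.37 and -1.9. Lyz2 rose with JQ1 (0.62) and in LPS + JQ1 against LPS (0.35). Of the T cell, B cell, fibroblast and epithelial markers, the genes that passed in these 3 comparisons were Cd4, Cd79b and Col3a1, all lower, with Cd4 and Col3a1 passing for JQ1 with and without LPS and Cd79b in all 3. LPS replicate 3 and LPS + IL10 replicate 3 stood apart from the other 2 libraries of their groups, with chi-square per degree of freedom of 24.2 to 28.3 between libraries against 3.97 to 10.5 for every other pair. Results that changed without either library are given with and without it.

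H3f3a and H3f3b lie on different chromosomes, at chr1:182730963-182744074 and chr11:115883226-115889276 (mm9, minus strand), yet their coding sequences gave the same 136 residues while differing at 95 of 411 coding bases. H2afz (chr3:137527451-137529886, plus strand) and H2afv (chr11:6327229-6344446, minus strand) coded for 128 residues each, of which 125 were identical. H2afx lies at chr9:44142798-44144154 (plus), H2afy at chr13:56174980-56237722 (minus), H2afj at chr6:136756769-136758595 (plus), H1f0 at chr15:78859152-78859689 (plus) and H1fx at chr6:87930416-87931476 (minus). The annotation used for these positions, GENCODE vM1, lists H1f0 only as a pseudogene of 538 bases, whereas the deposited values rest on the RefSeq transcript. Exons of H3f3a and H1fx overlap transcripts on the opposite strand in that annotation.

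Each pair makes the same or nearly the same protein from a different promoter, and the promoters are shown because the members of both pairs responded differently, as did H1f0. The 250 bases before the RefSeq start (GRCm38.p6) are printed 5′ to 3′ on the strand of the gene, with matches to the searched motifs in capitals.
H3f3b, chr11:116024505-116024754, minus strand: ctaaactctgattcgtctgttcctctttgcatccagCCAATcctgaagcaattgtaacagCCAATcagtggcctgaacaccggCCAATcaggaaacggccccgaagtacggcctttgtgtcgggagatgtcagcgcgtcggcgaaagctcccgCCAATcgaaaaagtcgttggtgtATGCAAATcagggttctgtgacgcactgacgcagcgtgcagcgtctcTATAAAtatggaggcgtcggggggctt
H3f3a, chr1:180813606-180813855, minus strand: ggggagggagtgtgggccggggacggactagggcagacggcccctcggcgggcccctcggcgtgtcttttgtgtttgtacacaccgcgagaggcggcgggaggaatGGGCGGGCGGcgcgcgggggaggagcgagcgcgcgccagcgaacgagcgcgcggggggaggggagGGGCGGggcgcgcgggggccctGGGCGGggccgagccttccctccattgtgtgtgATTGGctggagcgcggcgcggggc
H2afv, chr11:6444444-6444693, minus strand: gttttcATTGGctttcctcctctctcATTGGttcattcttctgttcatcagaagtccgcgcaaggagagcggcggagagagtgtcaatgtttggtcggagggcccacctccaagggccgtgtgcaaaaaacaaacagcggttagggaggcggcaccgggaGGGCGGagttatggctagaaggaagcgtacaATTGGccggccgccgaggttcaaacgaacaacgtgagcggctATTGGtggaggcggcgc
H2afz, chr3:137864237-137864486, plus strand: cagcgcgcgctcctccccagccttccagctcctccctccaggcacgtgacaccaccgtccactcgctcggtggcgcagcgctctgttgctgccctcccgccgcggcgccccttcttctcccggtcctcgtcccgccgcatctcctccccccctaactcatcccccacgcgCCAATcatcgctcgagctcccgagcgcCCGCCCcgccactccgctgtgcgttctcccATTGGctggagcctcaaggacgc
H1f0, chr15:79027962-79028211, plus strand: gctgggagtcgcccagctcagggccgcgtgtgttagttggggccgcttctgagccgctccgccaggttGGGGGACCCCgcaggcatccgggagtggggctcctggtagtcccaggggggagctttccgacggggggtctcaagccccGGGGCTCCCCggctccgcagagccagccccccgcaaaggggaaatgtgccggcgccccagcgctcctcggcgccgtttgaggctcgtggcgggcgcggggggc
The motifs, searched on both strands, were the CCAAT box (CCAAT), the TATA box (TATAAA), the GC box (GGGCGG), the octamer (ATGCAAAT), the cAMP response element (TGACGTCA), an AP-1 site (TGANTCA) and the NF-kB consensus. H3f3b had 4 CCAAT boxes, 1 TATA box and 1 octamer and no GC box. H3f3a had 1 CCAAT box and 4 GC boxes, 2 of which overlap, and no TATA box. H2afv had 4 CCAAT boxes and 1 GC box, H2afz 2 CCAAT boxes and 1 GC box, and H1f0 only 2 matches to the NF-kB consensus. Among 32841 RefSeq promoters of the same length, 33.9% held a CCAAT box, 12.4% a TATA box, 32.7% a GC box, 1.60% the octamer, 1.55% the cAMP response element, 6.75% the AP-1 site and 7.25% the NF-kB consensus. Of the other members, H2afj had 3 CCAAT boxes and 2 GC boxes, H2afy 2 GC boxes and H1fx 1 GC box. H2afx had no entry. These matches describe letters in a window and were not tested as binding sites.

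**Figure D1:**
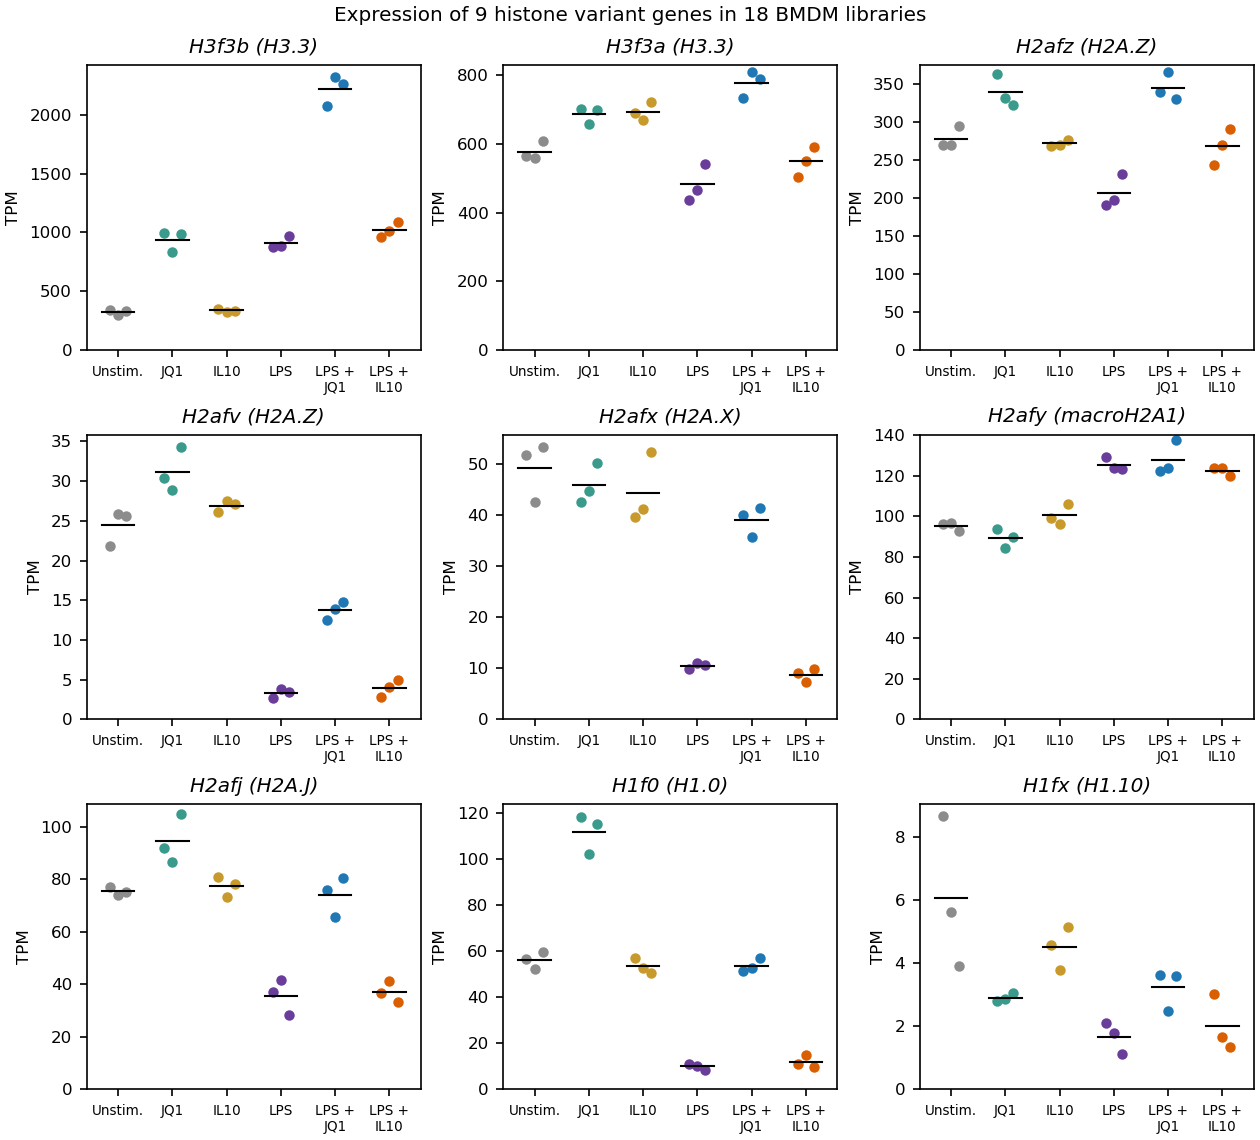
TPM (linear axes from 0) of the 9 histone variant genes in the 6 groups. Points are the 3 libraries of a group and lines are group means. H3f3b was highest in LPS + JQ1, with all 3 libraries between 2070.1 and 2319.6 TPM, while H2afv, H2afx and H1f0 were lowest in LPS and LPS + IL10.

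Levels between genes were compared in TPM. Without any treatment H3f3a was the most abundant member at 577 ± 27 TPM (SD, n = 3), followed by H3f3b at 320 ± 22 and H2afz at 278 ± 14, whose libraries overlapped with those of H3f3b. H2afy (95.4 ± 2.0), H2afj (75.5 ± 1.6), H1f0 (56.0 ± 3.7), H2afx (49.2 ± 5.8), H2afv (24.5 ± 2.3) and H1fx (6.06 ± 2.41) came after, and only H1f0 and H2afx overlapped among these neighbours. H3f3b took the first place in JQ1, LPS, LPS + JQ1 and LPS + IL10 but not in IL10. Over all 18 libraries the mean TPM of H3f3b and H3f3a lay at percentiles 99.5 and 99.2 of all genes, and that of H1fx at percentile 63.0.

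LPS changed 8 of the 9 members against Unstimulated cells (DESeq2 Wald test on rounded expected counts with median-of-ratios scaling, Benjamini-Hochberg adjusted p under 0.05), where 64.5% of all genes tested passed. Of those, 4 rose and 4 fell, with H3f3b the member that rose most and H2afv the one that fell most. JQ1 alone changed 7 of 9 members, 6 of them upwards, against 45.7% of all genes tested. JQ1 before LPS changed 8 of 9 relative to LPS alone, 7 of them upwards, against 57.3% of genes. IL-10 alone changed 1 of 9, against 2.81% of genes, and IL-10 before LPS changed 1 of 9, against 17.2%. LPS changed 6 of 9 members in JQ1-treated cells, where 58.6% of genes passed, and 8 of 9 in IL-10-treated cells, where 67.0% passed. Between the LPS + JQ1 and LPS + IL10 groups 7 of 9 differed, all higher with JQ1, against 55.3% of genes. With 9 members, shares this near the background are not a result about the members, and the changes of single members follow. Without LPS + IL10 replicate 3, 8 of 9 differed between LPS + JQ1 and LPS + IL10, H2afy (-0.20, DESeq2 adjusted p = 0.0342) being the one added.

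The direction of the smaller changes depended on how libraries were scaled. With median-of-ratios scaling the median log2 fold change of expressed genes with LPS was -0.07, with total-count scaling it was -1.0 and on log2(TPM + 1) it was -0.70. The share of called genes that were higher went from 49.0% to 20.1% with total-count scaling for LPS, from 48.0% to 26.8% for JQ1, from 42.5% to 64.9% for LPS + JQ1 against LPS, from 48.7% to 71.1% for LPS + IL10 against LPS, from 47.1% to 25.6% for LPS + JQ1 against JQ1, from 49.6% to 21.0% for LPS + IL10 against IL10, from 42.9% to 61.2% for LPS + JQ1 against LPS + IL10, from 42.6% to 85.4% for the interaction with JQ1 and from 53.7% to 73.6% for that with IL-10. Among the members, the split with LPS was 4 higher and 4 lower under median-of-ratios scaling, and 2 higher and 7 lower under total-count scaling. Both scalings give amounts relative to the other RNA of the library, and in bulk samples fewer cells of a type and less RNA per cell cannot be told apart.

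**Figure D2:**
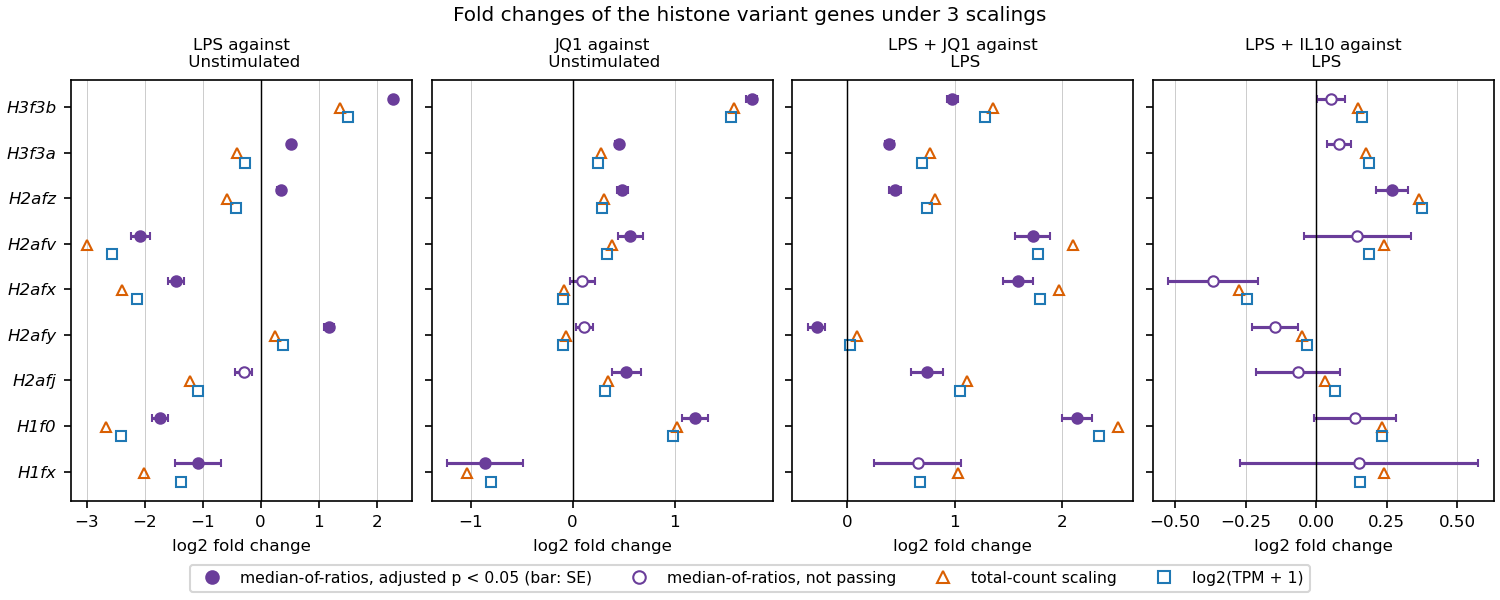
Log2 fold change of each member in 4 comparisons. Filled circles passed an adjusted p of 0.05 and open circles did not (DESeq2, median-of-ratios scaling, bars are SE); triangles are the same test with total-count scaling and squares are differences of log2(TPM + 1). For LPS, H3f3a and H2afz lie right of 0 in the circles (0.52 and 0.35) and left of 0 in the triangles (-0.41 and -0.58), while H3f3b lies to the right and H2afv, H2afx and H1f0 to the left under all 3.

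H3f3b rose with LPS and with JQ1, and rose further when both were given. Its TPM was 336, 294 and 329 in the Unstimulated libraries, 992, 835 and 986 in JQ1, 879, 885 and 968 in LPS, and 2070.1, 2319.6 and 2262.2 in LPS + JQ1. The 3 LPS + JQ1 libraries lay above every other library of the study, and the JQ1 and LPS libraries both lay apart from Unstimulated. On normalised counts the log2 fold change was 2.29 ± 0.05 (SE) with LPS, for which the adjusted p was too small for the software to hold, and 1.75 ± 0.05 with JQ1 (DESeq2 adjusted p = 1.19e-243). JQ1 before LPS raised it by a log2 fold change of 0.98 ± 0.05 over LPS alone (DESeq2 adjusted p = 3.26e-81). The combined level was below what the 2 separate changes would give when added on the log2 scale: the interaction was -0.77 ± 0.07 (DESeq2 adjusted p = 1.08e-24), -0.22 with total-count scaling, and -0.27 with limma, which did not pass on log2(TPM + 0.1) (adjusted p = 0.0506) or on log2(TPM + 1) without the filter (adjusted p = 0.0711). IL-10 left H3f3b at 352, 326 and 334 TPM without LPS and at 963, 1011 and 1084 TPM with it, and neither passed the test (log2 fold changes of 0.02 and 0.05, DESeq2 adjusted p = 1.0 and 0.587).

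H3f3a, the other H3.3 gene, changed far less. It measured 563, 560 and 608 TPM in Unstimulated, 702, 659 and 699 in JQ1, 438, 467 and 543 in LPS, and 735, 810 and 788 in LPS + JQ1. With LPS its direction was not settled, since the log2 fold change was 0.52 ± 0.04 (DESeq2 adjusted p = 1.39e-33) under median-of-ratios scaling, -0.41 under total-count scaling and -0.26 on log2(TPM + 1), each past the test. JQ1 raised it on every scale, by a log2 fold change of 0.45 ± 0.04 without LPS (DESeq2 adjusted p = 1.17e-25) and 0.39 ± 0.04 with LPS (DESeq2 adjusted p = 1.90e-20). H3f3a was also the member that passed with IL-10 alone, with 689, 669 and 721 TPM and a log2 fold change of 0.20 ± 0.04 (DESeq2 adjusted p = 0.00015). That call was lost with edgeR (adjusted p = 0.068) and with limma on log2(TPM + 1) (adjusted p = 0.13). Its expected counts were not whole numbers in any of the 18 libraries, so some reads were shared with other transcripts.

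The ratio of H3f3b to H3f3a within a library does not depend on scaling between libraries. It was 0.596, 0.525 and 0.541 in Unstimulated, 1.41, 1.27 and 1.41 in JQ1, 2.01, 1.90 and 1.78 in LPS, and 2.82, 2.86 and 2.87 in LPS + JQ1. In TPM, H3f3a was the larger source of H3.3 mRNA in untreated cells and H3f3b after JQ1, LPS or both. With IL-10 the ratio was 0.511, 0.487 and 0.464, and with LPS + IL-10 it was 1.91, 1.83 and 1.83. The log2 ratio differed by 1.77 between LPS and Unstimulated, by 1.30 between JQ1 and Unstimulated and by 0.59 between LPS + JQ1 and LPS, against pooled SDs of 0.09, 0.09 and 0.06. In all 3 comparisons the groups did not overlap and the exact two-sided permutation p was 0.1, the smallest that 3 libraries against 3 can give, and 0.123 after adjustment over the 16 tests of both ratios. IL10 differed from Unstimulated by -0.18, also without overlap (exact permutation p = 0.1). LPS + IL-10 differed from LPS by -0.03 (exact permutation p = 0.7).

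**Figure D3:**
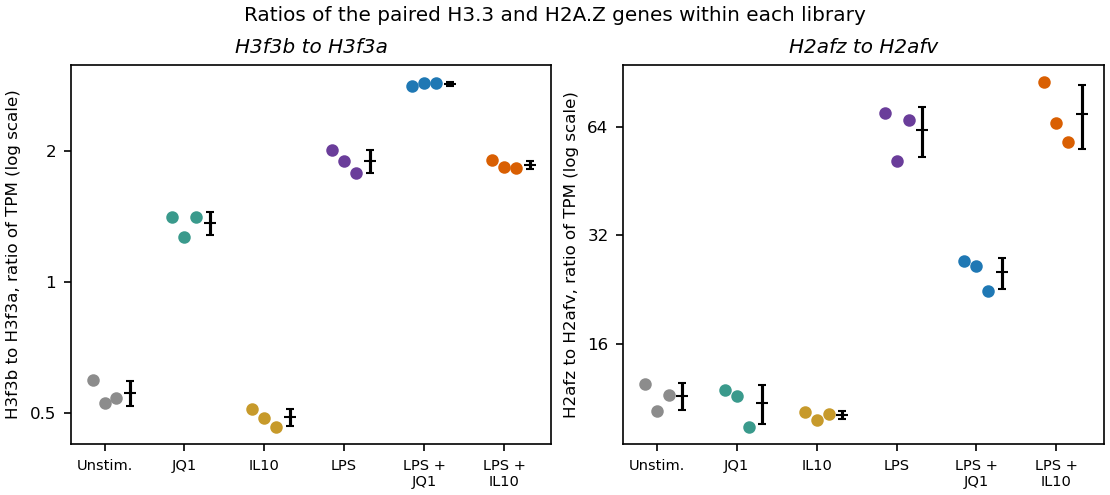
Ratio of TPM of H3f3b to H3f3a (left) and of H2afz to H2afv (right) in each library, on log axes. Points are libraries, and the dash and bar beside them are the mean and SD of the group (n = 3). The H3.3 ratio lies under 1 only in Unstimulated and IL10, and the H2A.Z ratio lies between 9.4 and 12.4 in the groups without LPS and above 50 in LPS and LPS + IL10.

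H2afv, the less abundant H2A.Z gene, fell strongly with LPS. It measured 21.9, 25.9 and 25.6 TPM in Unstimulated, 30.5, 28.9 and 34.3 in JQ1, 2.72, 3.83 and 3.45 in LPS, and 12.5, 13.9 and 14.7 in LPS + JQ1. Every LPS library lay below every library without LPS, and the LPS + JQ1 libraries lay between them. The log2 fold change was -2.07 ± 0.16 with LPS (DESeq2 adjusted p = 1.24e-36) and -0.91 ± 0.12 with LPS in JQ1-treated cells (DESeq2 adjusted p = 8.23e-13), and the difference of these changes was 1.16 ± 0.20 (DESeq2 adjusted p = 1.15e-07). JQ1 raised H2afv by 1.72 ± 0.17 on the log2 scale in LPS-treated cells (DESeq2 adjusted p = 2.52e-24) and by 0.57 ± 0.12 without LPS (DESeq2 adjusted p = 9.97e-06), the latter not passing with limma on log2(TPM + 0.1) (0.35, adjusted p = 0.082) or on log2(TPM + 1) without the filter (0.34, adjusted p = 0.0672). After IL-10 it remained low with LPS, at 2.86, 4.09 and 5.00 TPM.

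H2afz, the main H2A.Z gene, kept most of its level. It measured 270.3, 269 and 295 TPM in Unstimulated, 363, 332 and 322 in JQ1, 190.3, 198 and 232 in LPS, and 339, 366 and 331 in LPS + JQ1. With LPS it was higher by a log2 fold change of 0.35 ± 0.06 under median-of-ratios scaling (DESeq2 adjusted p = 2.95e-09) but lower by total-count scaling (-0.58) and on log2(TPM + 1) (-0.43), so its direction with LPS was not settled. JQ1 raised it on all 3 scales, by 0.49 ± 0.06 without LPS (DESeq2 adjusted p = 4.84e-17) and by 0.44 ± 0.06 with LPS (DESeq2 adjusted p = 8.28e-15). H2afz was the 1 member that passed with IL-10 before LPS: LPS + IL10 libraries had 244, 269.6 and 290.4 TPM, all above the LPS libraries, with a log2 fold change of 0.27 ± 0.06 (DESeq2 adjusted p = 3.05e-05). It was also the 1 member whose LPS change differed between cells with and without IL-10, by 0.36 ± 0.08 (DESeq2 adjusted p = 0.000219), where 7.44% of genes passed that interaction test. This did not pass with limma on log2(TPM + 0.1) (0.41, adjusted p = 0.052) or on log2(TPM + 1) without the filter (adjusted p = 0.0619). The IL-10 call in LPS-treated cells was lost when the model was fitted on those 2 groups alone (DESeq2 adjusted p = 0.0687).

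The H2afz to H2afv ratio moved accordingly. It was 12.4, 10.4 and 11.5 in Unstimulated and 11.9, 11.5 and 9.4 in JQ1, rose to 70.0, 51.6 and 67.2 in LPS, and was 27.1, 26.2 and 22.4 in LPS + JQ1. The log2 ratio differed by 2.45 for LPS against Unstimulated and by -1.31 for LPS + JQ1 against LPS, with no overlap and an exact permutation p of 0.1 in both. LPS + IL10 libraries had ratios of 85.3, 65.9 and 58.1, which overlapped with LPS (exact permutation p = 0.6). Without LPS the IL10 libraries had 10.3, 9.84 and 10.2, all below Unstimulated (log2 difference -0.17, exact permutation p = 0.1).

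H2afx, whose product marks DNA breaks once phosphorylated, fell with LPS, and its response to LPS differed with JQ1 present. It measured 51.7, 42.5 and 53.3 TPM in Unstimulated, 42.6, 44.7 and 50.1 in JQ1, 9.9, 10.96 and 10.6 in LPS, and 40.0, 35.6 and 41.2 in LPS + JQ1. The LPS libraries lay far below these other groups, and in TPM the LPS + JQ1 libraries lay just below those of Unstimulated and JQ1. On normalised counts the LPS + JQ1 libraries overlapped with both. The log2 fold change was -1.45 ± 0.14 with LPS (DESeq2 adjusted p = 1.18e-24) and 0.04 ± 0.12 with LPS in JQ1-treated cells (DESeq2 adjusted p = 0.790), although total-count scaling gave -0.33 (DESeq2 adjusted p = 0.0133) for the latter. The interaction was 1.5 ± 0.19 (DESeq2 adjusted p = 2.51e-14). JQ1 alone did not pass for H2afx (0.09 ± 0.12, DESeq2 adjusted p = 0.580). With LPS + IL-10 it was at 9.07, 7.36 and 9.77 TPM, below all 3 LPS libraries, with a log2 fold change of -0.37 ± 0.16 that did not pass (DESeq2 adjusted p = 0.0976). Its expected counts were not whole in any library, so some reads were shared with other transcripts.

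H2afy, which encodes macroH2A1, rose with LPS. It measured 96.2, 96.8 and 93.0 TPM in Unstimulated, 93.7, 84.7 and 89.8 in JQ1, 129, 124 and 124 in LPS, and 122, 124 and 138 in LPS + JQ1. All LPS libraries, with or without JQ1, lay above all libraries without LPS. The log2 fold change with LPS was 1.18 ± 0.08 (DESeq2 adjusted p = 4.93e-45), 0.26 under total-count scaling and 0.39 on log2(TPM + 1). JQ1 did not pass without LPS (0.11 ± 0.08, DESeq2 adjusted p = 0.289). With LPS it gave -0.28 ± 0.08 (DESeq2 adjusted p = 0.00138), but -0.16 under TMM scaling (DESeq2 adjusted p = 0.071), 0.10 under total-count scaling and 0.03 on log2(TPM + 1), none of them past the test, so a lower H2afy with JQ1 rested on the scaling.

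H2afj, a mammalian H2A form linked to senescent cells, fell with LPS in TPM but did not pass on normalised counts. It measured 77.3, 74.1 and 75.2 TPM in Unstimulated, 92.0, 86.7 and 105 in JQ1, 36.9, 41.7 and 28.2 in LPS, and 76.1, 65.7 and 80.4 in LPS + JQ1. The log2 fold change with LPS was -0.29 ± 0.15 on normalised counts, which did not pass (DESeq2 adjusted p = 0.0743), while TMM scaling gave -0.36 (DESeq2 adjusted p = 0.0244) and total-count scaling -1.22. JQ1 raised it by 0.53 ± 0.15 without LPS (DESeq2 adjusted p = 0.00104, but 0.0518 with limma on log2(TPM + 1) without the filter) and by 0.74 ± 0.15 with LPS (DESeq2 adjusted p = 1.59e-06). LPS in IL-10-treated cells gave -0.34 ± 0.15 (DESeq2 adjusted p = 0.0336), and did not pass without LPS + IL10 replicate 3 (-0.22, DESeq2 adjusted p = 0.21), without any 1 of the IL10 libraries (adjusted p from 0.0616 to 0.096) or with the sequencing lane in the model (-0.32, DESeq2 adjusted p = 0.0601). In LPS the lowest library was replicate 3, without which the log2 fold change was -0.10 (DESeq2 adjusted p = 0.459). Without LPS replicate 2 it was -0.43 and passed (DESeq2 adjusted p = 0.01).

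H1f0, the linker histone of resting and differentiated cells, had the largest change with JQ1 in LPS-treated cells among the members. It measured 56.4, 52.1 and 59.4 TPM in Unstimulated, 118, 102 and 115 in JQ1, 11, 9.94 and 8.4 in LPS, and 51.2, 52.4 and 56.7 in LPS + JQ1. In TPM, JQ1 libraries lay above all others, LPS libraries at the bottom, and LPS + JQ1 libraries overlapped with Unstimulated. On normalised counts the LPS + JQ1 libraries (1136, 1067 and 1205) lay above the Unstimulated ones (852, 830 and 886). The log2 fold change was -1.73 ± 0.14 with LPS (DESeq2 adjusted p = 1.5e-35), 1.2 ± 0.13 with JQ1 (DESeq2 adjusted p = 5.37e-20) and 2.14 ± 0.14 for LPS + JQ1 against LPS (DESeq2 adjusted p = 1.85e-53). LPS also lowered it in JQ1-treated cells, with a log2 fold change of -0.79 ± 0.13 (DESeq2 adjusted p = 1.17e-09), and the interaction was 0.94 ± 0.19 (DESeq2 adjusted p = 3.15e-06). With LPS + IL-10 it was at 11.02, 14.6 and 9.7 TPM, overlapping with LPS.

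H1fx, which encodes H1.10, was near the limit of what these libraries could resolve, with 9 to 70 expected counts a library. It measured 8.66, 5.62 and 3.89 TPM in Unstimulated, 2.79, 2.87 and 3.05 in JQ1, 2.08, 1.77 and 1.1 in LPS, and 3.61, 2.48 and 3.59 in LPS + JQ1. The Unstimulated libraries spread more than the other groups. It fell with LPS, with a log2 fold change of -1.08 ± 0.39 (DESeq2 adjusted p = 0.0103), and with JQ1, with one of -0.86 ± 0.37 (DESeq2 adjusted p = 0.0466). The first did not pass without Unstimulated replicate 1 (-0.70, DESeq2 adjusted p = 0.136) or without LPS replicate 3 (-0.82, DESeq2 adjusted p = 0.0774), and the second did not pass without any 1 of 5 of the 6 libraries compared, with adjusted p from 0.0769 to 0.373. LPS + JQ1 against LPS gave 0.66 ± 0.41, which did not pass (DESeq2 adjusted p = 0.158). It passed with total-count scaling (1.03, DESeq2 adjusted p = 0.0184) and in the limma fits on TPM (adjusted p from 0.0105 to 0.0282), and the TPM of these groups did not overlap while their normalised counts did.

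The test of whether JQ1 altered the response to LPS passed for 6 of 9 members, against 41.5% of genes tested. H2afx, H2afv, H1f0 and H1fx had a positive interaction and H3f3b and H2afy a negative one. H2afv and H1f0 still fell with LPS when JQ1 was present, by less, while H2afx and H1fx did not pass there (0.04 and 0.44, DESeq2 adjusted p = 0.79 and 0.34). For H1fx it was 1.52 ± 0.55 (DESeq2 adjusted p = 0.0167), and it did not pass without LPS replicate 3 (DESeq2 adjusted p = 0.0639), Unstimulated replicate 1 (0.0959) or LPS + JQ1 replicate 1 (0.0542). For H2afy it was -0.39 ± 0.12 (DESeq2 adjusted p = 0.00294), it did not pass with TMM scaling (-0.27, DESeq2 adjusted p = 0.0508), and it became 0.16 under total-count scaling. H2afz, H3f3a and H2afj gave -0.04, -0.06 and 0.21 and did not pass, but all 3 were positive and passed with total-count scaling (0.51, 0.49 and 0.77), under which the median interaction of expressed genes was 0.51.

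Replicates 1 and 3 had their LPS and unstimulated libraries on the same sequencing lane, and replicate 2 had them on different lanes. The differences of log2(normalised count + 1) within replicates 1, 2 and 3 for LPS against Unstimulated were 2.28, 2.33 and 2.26 for H3f3b, -2.10, -2.0 and -2.17 for H2afv, -1.48, -1.20 and -1.63 for H2afx, -1.46, -1.65 and -2.11 for H1f0 and 1.32, 1.1 and 1.11 for H2afy. The 2 same-lane pairs moved the same way as the third in each of these genes. For JQ1 and IL-10, compared at the same LPS state, lanes were matched in every replicate.

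Summed over the 9 members, expression was 1481 ± 61 TPM in Unstimulated, 2339 ± 142 in JQ1, 1609 ± 46 in IL10, 1786 ± 116 in LPS, 3652 ± 179 in LPS + JQ1 and 2022 ± 124 in LPS + IL10. H3f3b made up 21.6% of that sum in Unstimulated, 40.0% in JQ1, 51.0% in LPS and 60.7% in LPS + JQ1. H2afv made up 1.65% in Unstimulated and 0.187% in LPS.

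**Figure D4:**
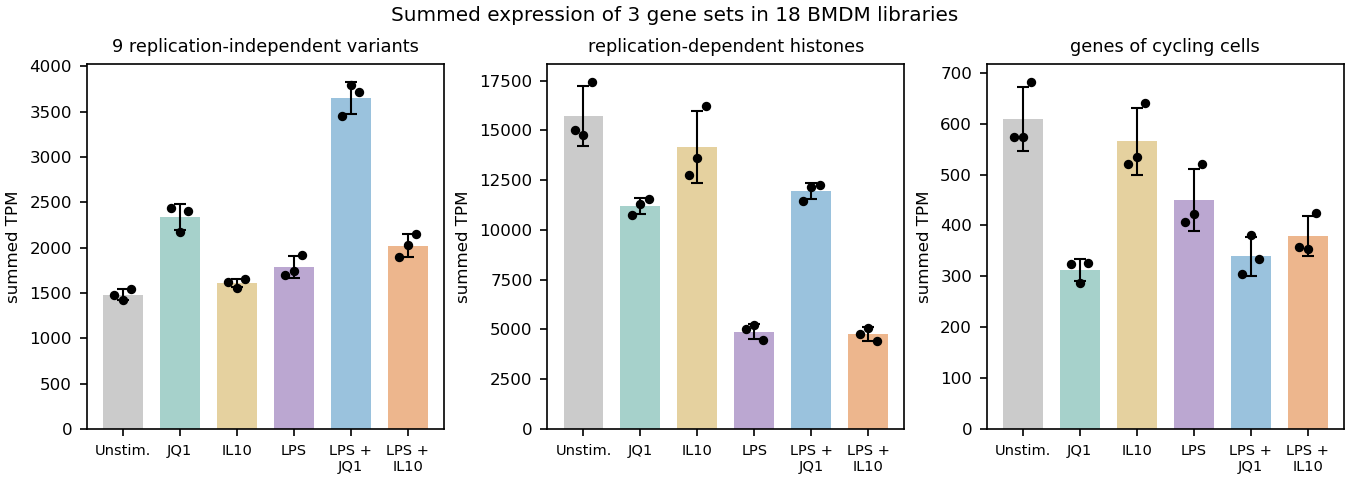
Summed TPM of the 9 variant genes, of 69 replication-dependent histone genes and of 21 genes of cycling cells. Bars are group means from 0, error bars are SD (n = 3) and points are libraries. The variant sum is highest in LPS + JQ1 (3652), the replication-dependent sum lowest in LPS + IL10 and LPS (4755 and 4886), and the cycling sum lowest in JQ1 (313).

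The replication-dependent histone genes, near-identical copies among which the counting can split reads, made up 15726 ± 1495 TPM in Unstimulated, 11204 ± 406 in JQ1, 4886 ± 387 in LPS, 11953 ± 420 in LPS + JQ1 and 4755 ± 346 in LPS + IL10. With LPS 3 of 67 tested rose (Hist1h4d, Hist1h4i and Hist3h2a, none of which passed as higher with total-count scaling, at -0.53, -0.46 and 0.038) and 57 fell (median log2 fold change -1.79, against -0.07 for expressed genes), and with LPS + JQ1 against LPS 43 rose and 12 fell (median 1.03, against -0.10). JQ1 alone raised 9 and lowered 43 (median -0.84). The members of the list that moved most with LPS were Hist1h3g (-4.76 ± 0.41) and Hist1h2an (-4.03 ± 0.42), and in LPS + JQ1 against LPS they were Hist2h3c1 (3.36 ± 0.76) and Hist1h3c (-3.33 ± 0.31), which moved in opposite directions. Among the 21 genes of cycling cells LPS raised 4 (Ccne1, Mki67, Tyms and Pcna) and lowered 17 (median -1.46). Tyms and Pcna no longer rose with total-count scaling, at 0.19 and -0.31. JQ1 alone lowered all 21 (median -1.37), and LPS + JQ1 against LPS raised E2f1 alone and lowered 18 (median -1.57). Over all genes tested, 64.5% passed with LPS, 45.7% with JQ1 alone and 57.3% in LPS + JQ1 against LPS. Ccne1, which encodes the G1/S cyclin E1, rose with LPS (3.17 ± 0.19) and Plk1, a mitotic kinase, fell (-3.16 ± 0.35), while Mki67, which marks dividing cells, and Mcm5, a subunit of the replicative helicase, fell in LPS + JQ1 against LPS (-3.24 ± 0.13 and -2.64 ± 0.25). The part of cell division in the members' changes was not tested.

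Of the 8 genes that place H3.3, 4 rose and 2 fell with LPS (median log2 fold change 0.29), and 2 rose and 3 fell in LPS + JQ1 against LPS (median -0.17). With total-count scaling these splits were 1 higher and 5 lower, and 3 higher and 1 lower. Over all genes tested, 64.5% passed with LPS and 57.3% in LPS + JQ1 against LPS (75.7% and 58.2% with total-count scaling). Counts near these shares are not a result about the list. Daxx, which chaperones H3.3 to heterochromatin, went from 35.6 TPM in Unstimulated to 505 in LPS and 259 in LPS + JQ1 (log2 fold change 4.61 ± 0.10 with LPS and -1.28 ± 0.09 for LPS + JQ1 against LPS). Ubn1, a subunit of the HIRA complex, went the other way, from 27.8 to 6.16 and 18.2 TPM (-1.39 ± 0.07 and 1.26 ± 0.07). Hira fell with LPS, and Dek, Asf1a and Ubn2 rose under median-of-ratios scaling (1.02, 0.59 and 0.55) but not under total-count scaling (0.091, -0.34 and -0.38). In LPS + JQ1 against LPS Hira rose, and Atrx and Dek fell under median-of-ratios scaling (-0.60 and -0.47) but did not pass under total-count scaling (-0.22 and -0.091), genes listed after their values were seen, like those listed without values for the other lists. The genes of these histone, cell cycle and chaperone lists that are given with an SE passed DESeq2 in that comparison. They kept their direction under TMM and total-count scaling and on log2(TPM + 1). The median of expressed genes with LPS was -0.145, -1.0 and -0.70 under these settings, against -0.07. In LPS + JQ1 against LPS it was 0.02, 0.28 and 0.17, against -0.10. A kept fall with LPS, or a kept rise in LPS + JQ1 against LPS, is therefore no added support.

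The counts of the next lists stand beside 64.5% of all genes passing with LPS and 57.3% in LPS + JQ1 against LPS. Counts near these shares are not a result about a list. Of the 17 genes of H2A.Z exchange, 9 rose and 3 fell with LPS (median 0.28), which became 3 and 12 with total-count scaling. In LPS + JQ1 against LPS 5 rose and 7 fell (median -0.10), which became 8 and 3. Those that fell with LPS were Actr6, Ruvbl2 and Trrap. Ep400, the ATPase of the EP400 complex, rose with LPS (2.17 ± 0.05), as did Mrgbp, another of its subunits (1.90 ± 0.22). In LPS + JQ1 against LPS, Dmap1 fell (-2.30 ± 0.21) and Trrap rose (1.26 ± 0.07), both subunits of the same complex. Of the 11 genes of H2A.X signalling, 3 rose and 5 fell with LPS (median -0.10), which became 1 and 8 with total-count scaling, and 6 rose and 3 fell in LPS + JQ1 against LPS (median 0.17). Atm, a kinase that phosphorylates H2A.X, rose with LPS (2.26 ± 0.15) and was lower in LPS + JQ1 than in LPS (-1.12 ± 0.15). Mdc1, which binds the phosphorylated form, fell with LPS (-1.33 ± 0.11) and was higher in LPS + JQ1 than in LPS (1.19 ± 0.11). Prkdc, Trp53bp1 and Eya3 also fell with LPS (-1.65, -1.07 and -0.15). Ppp4c and Atr rose with LPS under median-of-ratios scaling (0.99 and 0.51) but not under total-count scaling (0.065 and -0.42). Eya1, a phosphatase for a tyrosine of H2A.X, fell with LPS (-1.69 ± 0.26).

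Of 10 general and replication-coupled chaperones measured, 3 rose and 5 fell with LPS (median -0.10), which became 0 and 10 with total-count scaling. In LPS + JQ1 against LPS 1 rose and 3 fell (median 0.02), which became 6 and 1. Over all genes tested, 64.5% passed with LPS and 57.3% in LPS + JQ1 against LPS, and counts near these shares are not a result about the chaperones. Nap1l4, Set and Supt6 rose with LPS under median-of-ratios scaling (0.52, 0.31 and 0.76) and were negative under total-count scaling (-0.41, -0.62 and -0.17). Nap1l4 and Set fell in LPS + JQ1 against LPS (-0.22 and -0.28), and were positive under total-count scaling (0.16 and 0.10). Chaf1a and Asf1b, which serve replication-coupled assembly, fell with LPS (-2.64 ± 0.24 and -1.71 ± 0.24). Nasp, which holds the soluble pool of H3 and H4, rose in LPS + JQ1 against LPS (1.38 ± 0.12) and Ssrp1, a subunit of FACT, fell (-0.83 ± 0.08). Of 9 other variant histones only 3 had enough counts for an adjusted p with LPS, and Cenpa and H2afy2 fell. H2afy2 (-1.59, DESeq2 adjusted p = 0.038) was weakly expressed and did not reach 1 TPM in 3 libraries. Cenpa, the centromeric H3, fell with LPS (-2.17 ± 0.22) and was lower again in LPS + JQ1 (-1.71 ± 0.31). With IL-10 alone the gene of these lists that passed was Daxx, which fell (-0.33, DESeq2 adjusted p = 0.0421). It did not pass with limma on log2(TPM + 1) (-0.26). In LPS + IL10 against LPS, Ubn1 and Mdc1 rose (0.46 and 0.38), and Epc1 (-0.25, but 0.008 on log2(TPM + 1)), the cycling genes Mcm6, Mki67 and Pcna, and Hist1h2ai, Hist1h2ak, Hist1h3b and Hist1h3h fell.

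For each member the 3 genes most alike over the 18 libraries were found by the root mean square difference of centred log2 normalised counts among 6660 genes with a mean TPM of at least 10. H3f3b lay nearest to Fkbp5 (0.23, against a spread of its own of 1.22), then Larp1b and Carhsp1. H2afy lay nearest to Smarca4 (0.08, own spread 0.51), Arf1 and Srrt, and H3f3a to Heatr5b (0.09, own spread 0.29), Trak2 and Hdlbp. H2afz lay nearest to Dnajb1 (0.10, own spread 0.32), Rnf103 and Exoc6b, H2afv to Ulk2 (0.19, own spread 1.03), Impact and Tk2, and H2afx to Il6st (0.20, own spread 0.80), Surf2 and Rassf8. H1f0 lay nearest to Slc25a30 (0.21, own spread 1.06), Pkd1 and Ern1, and H2afj to Zbtb9 (0.12, own spread 0.38), Lrpap1 and Brf1. H1fx had no close partner, with Ccdc12 nearest at 0.33 for an own spread of 0.51, then Srm and Zfp768. No member was among the 3 genes nearest to another member.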

How the data were processed

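RNA-seq of 18 libraries of Il10-/- BMDMs was analysed from deposited gene tables. The authors prepared stranded, ribosomal RNA-depleted total RNA libraries, extracted the paired-end reads with TagDust, and used the default settings of STAR to align them to mm9 and of RSEM 1.2.31 to quantify them, which for RSEM do not use strand. The deposited values used were expected counts (estimated counts that need not be whole) and TPM. The deposited FPKM values and effective lengths were not used for tests. Totals of 6781952 to 28289498 expected counts set the precision, and a member with few counts, such as H1fx, is measured less firmly.

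Expected counts were rounded and tested with DESeq2 1.42.0 (Wald test, 1 joint fit to the 18 libraries with a mean per group, size factors by median of ratios, default independent filtering, adjusted p under 0.05 over all genes). Alternatives were TMM and total-count size factors, edgeR 4.0.16 (quasi-likelihood), limma 3.58.1 on log2(TPM + 1) or log2(TPM + 0.1) with and without a filter of 1 TPM in 3 libraries, a filter of 10 counts in 3 libraries, a replicate block, a lane term, fits of the compared groups only, and each library left out. The scripts were tested on simulated data. Within-library ratios were compared by exact permutation of libraries between groups, which did not use the pairing by replicate. No 2 replicates agreed within sampling noise.

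The labels number the libraries 1 to 3 in every group and name 3 mice, so same-numbered libraries were taken to share a mouse. Their deviations from the group means correlated at -0.09 to 0.38. The main DESeq2 fit had no mouse term, so its p-values reflect the spread of libraries within groups, from these 3 mice.

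All 9 members are named. From the lists of H3.3 deposition, H2A.Z exchange, H2A.X signalling, chaperones, cycling cells, replication-dependent and other variant histones, the 2 genes with the largest passing change and a mean normalised count of at least 50 are named for LPS against Unstimulated and LPS + JQ1 against LPS. The members and lists were chosen with earlier results of these data known. H3f3c and Supt16h were not analysed here, and Supt6h and Emr1 were used under the symbols Supt6 and Adgre1. Promoter motifs were chosen after some of the sequences were seen. Promoters came from RefSeq (GRCm38.p6; 8 of 9 members matched) and mm9 positions from GENCODE vM1. One marker list is not reported here.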

Additional observations from a re-analysis of the deposited data

Results flagged for a closer look

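The response to LPS differed between cells with and without JQ1 for 6 members, by the interaction term of the DESeq2 model, which 41.5% of all genes tested passed. On the log2 scale the difference was 1.5 ± 0.19 for H2afx (adjusted p = 2.51e-14), 1.16 ± 0.20 for H2afv (adjusted p = 1.15e-07), 0.94 ± 0.19 for H1f0 (adjusted p = 3.15e-06) and 1.52 ± 0.55 for H1fx (adjusted p = 0.0167). It was -0.77 ± 0.07 for H3f3b (adjusted p = 1.08e-24) and -0.39 ± 0.12 for H2afy (adjusted p = 0.00294). The last did not pass with TMM scaling (adjusted p = 0.0508) and turned positive with total-count scaling. The H3f3b value did not pass with limma on log2(TPM + 0.1) or on log2(TPM + 1) without the filter. That of H1fx did not pass without LPS replicate 3, Unstimulated replicate 1 or LPS + JQ1 replicate 1. The response to LPS differed between cells with and without IL-10 for H2afz, by 0.36 ± 0.08 (adjusted p = 0.000219), where 7.44% of genes passed, and this did not pass with limma on log2(TPM + 0.1) (adjusted p = 0.052) or on log2(TPM + 1) without the filter (adjusted p = 0.0619). The positive values of H2afx, H2afv and H1f0 kept their sign and passed under TMM and total-count scaling and on log2(TPM + 1). The median interaction with JQ1 of expressed genes was -0.05 with median-of-ratios scaling and 0.08, 0.51 and 0.39 under these settings. They move interactions upwards, so a kept positive sign is no added support.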

How the results depend on the processing

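Some directions turned with the scaling, and the cause was not tested. For LPS against Unstimulated, H2afz gave -0.581 with total-count scaling, -0.431 on log2(TPM + 1) with or without the filter and -0.432 on log2(TPM + 0.1), and H3f3a gave -0.41 with total-count scaling and -0.263 in the TPM fits. For LPS + JQ1 against LPS, H2afy gave 0.096 and 0.026 in the same order. For LPS + JQ1 against JQ1, total-count scaling gave -0.07 for H2afz and -0.331 for H2afx. For LPS + IL10 against IL10 it gave -0.121 for H2afz and -0.435 for H3f3a, and the TPM fits gave -0.024 and -0.338. For the interaction with JQ1, total-count scaling gave 0.511 for H2afz, 0.159 for H2afy and 0.493 for H3f3a, the log2(TPM + 1) fits 0.458, 0.118 and 0.441, and the log2(TPM + 0.1) fit 0.46, 0.12 and 0.442.

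With IL-10 alone 0 members passed with edgeR and with each limma fit, against 1 with DESeq2. With LPS + IL10 against LPS 2 members passed with total-count scaling and 0 when only those groups were fitted, and for the interaction with IL-10 0 passed with limma on log2(TPM + 0.1) or without the filter. Over all genes, IL-10 alone changed 358 with DESeq2 and 230 with edgeR, and 171, 117 and 205 with limma on log2(TPM + 1), on log2(TPM + 0.1) and without the filter. LPS + IL10 against LPS changed 1968, or 1089 when only those groups were fitted, and the interaction with IL-10 passed for 804, or 529 on log2(TPM + 0.1).

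Leaving out 1 library at a time gave 7 to 9 members for LPS, 6 to 7 for JQ1, 5 to 6 for the interaction with JQ1, 7 to 8 for LPS + IL10 against IL10 and for LPS + JQ1 against LPS + IL10, and turned the direction of no member's change that had passed the test. The log2 ratio of H3f3b to H3f3a ranged from -0.07 to 0.015 for LPS + IL10 against LPS, that behind the H2afz to H2afv TPM ratio, JQ1 against Unstimulated, from -0.133 to 0.037, and the same ratio for LPS + IL10 against LPS from -0.011 to 0.265. The replicate block changed none of the 90 calls of single members. H2afz in LPS + IL10 against LPS, for example, stayed at 0.269 (DESeq2 adjusted p = 9.49e-05). For the ratios, pairing by replicate cannot change the mean log2 difference between groups of equal size, so it was no check of them. Depth limits H1fx most, with 9 to 70 counts a library.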
